A study of Mus musculus with 21 samples.

Results

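The 8 genes described here are Procr, Hlf, Mecom, Mllt3, Robo4, Cd34, Esam and Tek, which are used as markers or regulators of hematopoietic stem cells and of the first multipotent progenitors. They are 8 of the 18217 gene symbols that RefSeq accessions gave to the probes of the array. They were taken by symbol, with earlier results of these data known, and the choice of the brightest probe used measured levels. The members had 14 probes in all, of which Mllt3 had 5, Mecom had 3 and each other gene had 1. A level is the log2 intensity of a gene's brightest probe, after background correction, relative to the array's 75th percentile, so that a level of 0 equals that percentile. Each of the 14 probes had at least 1 fraction whose 3 arrays were well above background, which was the condition for a test. A level describes the same probe across fractions and is never set against the level of another gene.

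Total RNA was measured in 7 fractions that had been sorted out of C57BL/6 mouse marrow, on 21 arrays, 3 for each fraction, and no fraction was treated. KLS cells (lin- ckit+ sca1+) hold the stem and multipotent cells and are the starting point of both lineages. PreMegE, CFUe and Ter119 (CD71+ Ter119+) cells follow the erythroid lineage, and PreGM, GMP and Mac1Gr1 (Mac1+ Gr1+) cells follow the myeloid lineage. The purpose of the sort was to follow primary cells through 3 stages of each lineage. Lineage depletion (lin-) removed cells with B220, CD3, CD4, CD8, CD41, Mac1, Gr1 or Ter119. The labels write PreMegE as sca1+ CD150+ CD105- and negative for Fc gamma receptors, GMP as sca1+ CD150- and positive for Fc gamma receptors, and CFUe and PreGM with one and the same gate, sca1+ CD150- CD105- and negative for Fc gamma receptors. The written gates therefore do not separate CFUe from PreGM, and the group of each array is the name in its label. CD34 was not part of any gate. The age and sex of the mice, and whether replicates came from separate mice or pools, were not in the labels, so that p values measure the spread between arrays, which may be technical.

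Hematopoietic stem cells sit in the bone marrow, divide rarely and give rise to all blood lineages. Their identity is held by transcription factors such as HLF and MECOM, and they carry surface proteins that many of them share with the endothelium from which they arise in the embryo. Among these are PROCR (EPCR), the receptor that binds activated protein C, TEK (TIE2), the receptor tyrosine kinase for angiopoietins, ROBO4, a receptor of the Roundabout family that helps stem cells to lodge in the marrow, the sialomucin CD34 and the adhesion molecule ESAM. MLLT3 (AF9) reads acylated histones and recruits DOT1L and elongation factors to chromatin, and it is best known as a partner in MLL fusions in leukemia.

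The promoters of 3 genes that fell in both fractions next to KLS cells, Procr, Hlf and Robo4, are shown first, together with the pair of start sites of Mecom, whose probes did not follow each other. The sequences are the 250 bases before the RefSeq transcription start in GRCm38.p6, written 5′ to 3′ on the strand of the gene. Capitals mark the words GGAAG, the core of ETS factor sites (written CTTCC where it lies on the other strand), and TGATAA, which is bound by the factor family of Gata2.
Procr, chr2:155750967-155751216, plus strand: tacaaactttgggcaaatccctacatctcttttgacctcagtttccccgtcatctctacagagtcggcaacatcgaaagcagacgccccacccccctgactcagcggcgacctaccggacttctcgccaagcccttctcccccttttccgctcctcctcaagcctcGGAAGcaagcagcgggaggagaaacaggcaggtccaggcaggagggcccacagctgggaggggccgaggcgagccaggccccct
Hlf, chr11:90390918-90391167, minus strand: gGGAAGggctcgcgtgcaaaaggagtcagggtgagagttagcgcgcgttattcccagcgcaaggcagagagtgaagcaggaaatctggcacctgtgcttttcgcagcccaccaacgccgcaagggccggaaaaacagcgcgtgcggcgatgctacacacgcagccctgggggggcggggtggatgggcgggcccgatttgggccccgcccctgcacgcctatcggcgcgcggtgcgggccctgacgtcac
Robo4, chr9:37401722-37401971, plus strand: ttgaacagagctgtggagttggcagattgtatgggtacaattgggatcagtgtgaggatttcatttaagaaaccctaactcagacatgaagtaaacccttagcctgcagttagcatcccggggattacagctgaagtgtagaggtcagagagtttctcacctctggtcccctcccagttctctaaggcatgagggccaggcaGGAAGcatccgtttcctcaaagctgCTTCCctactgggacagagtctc
Mecom, downstream start, chr3:30013205-30013454, minus strand: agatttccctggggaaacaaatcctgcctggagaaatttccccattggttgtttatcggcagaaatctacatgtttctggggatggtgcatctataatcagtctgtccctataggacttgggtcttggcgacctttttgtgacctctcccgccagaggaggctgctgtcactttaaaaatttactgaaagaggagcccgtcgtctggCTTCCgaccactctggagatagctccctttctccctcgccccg
Mecom, upstream start, chr3:30509760-30510009, minus strand: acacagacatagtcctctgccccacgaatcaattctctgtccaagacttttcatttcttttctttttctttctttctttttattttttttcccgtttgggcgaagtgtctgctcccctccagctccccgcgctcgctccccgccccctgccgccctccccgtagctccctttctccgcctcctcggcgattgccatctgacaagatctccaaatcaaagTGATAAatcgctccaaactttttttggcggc
Both strands were searched, also for AGATAA, bound by the same factor family, and for the core word of RUNX factors, which is TGTGGT. No word contains another. The promoter table held 9 windows for 7 of the 8 genes. GGAAG was found in 5 of the 9 windows, those of Procr, Hlf, Robo4, Cd34 and the downstream start of Mecom, beside 64.1% of 32851 promoters of the same length. TGATAA was found in 1 of the 9, the upstream start of Mecom, beside 7.9% of all. AGATAA was in none of the 9 and in 3281 of all promoters. The RUNX word was in none of the 9 and in 14.0% of all. Robo4 and Esam lie on the same chromosome, 9, with 2 protein-coding genes between them.

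Some properties of the arrays bear on the values that follow. Every array correlated best with an array of its own fraction. The Y-linked transcript Ddx3y was well above background on 11 arrays (levels 1.17 to 1.93) and on none of the other 10 (-7.73 to -6.17), on which Xist read 3.90 to 5.61. The 11 were all arrays of KLS, PreMegE and Ter119 cells, replicate 3 of CFUe and replicate 3 of PreGM. Replicate 3 of CFUe and replicate 3 of GMP stood apart from the other arrays of their fractions in Cd34 and Esam, respectively. In bulk RNA, fewer cells of a type and less RNA per cell cannot be told apart. The sorting antigens were measured too. Ly6a, which encodes Sca1, read 2.57 in KLS, -0.31 in PreGM, 2.10 in GMP and -3.14 in PreMegE, and was well above background on 1 CFUe array of 3. Slamf1, which encodes CD150, was well above background on all arrays of KLS and PreMegE cells (means -2.997 and 0.32) and on none of CFUe, PreGM and GMP cells. Macrophage markers were high in KLS cells, where the summed linear level of 11 genes was 28.1 to 76.8, against at most 1.47 in PreMegE and PreGM cells. Granulocytic markers were high in Ter119 cells, where the summed level of 13 genes (4731 to 5945) overlapped with that of Mac1Gr1 cells (5496 to 6141), against 5.98, 5.41 and 41.4 in CFUe cells. Of 12 endothelial markers, 8, 9 and 9 were well above background on the KLS arrays. Their summed level was 21.5 to 26.4 in KLS, 17.4 to 19.3 in PreGM, 13.32 to 16.25 in CFUe and 8.46 to 9.63 in PreMegE. The sum weights bright genes most, and the median log2 level did not follow it. This median was -2.95 to -2.74 in KLS, -3.95 to -3.36 in PreGM and -4.11 to -2.85 in PreMegE. It was higher in Ter119 (-2.47 to -2.23) and Mac1Gr1 (-2.09 to -1.60), where the sums were low (3.73 to 4.845 and 3.39 to 4.05). In PreMegE and in PreGM, 3 of 10 tested were called lower than in KLS and none higher. Cdh5, Flt4 and Lyve1 were not well above background on any KLS array, while Egfl7 (mean 4.43), Pecam1 (-0.50) and Kdr (-2.65) were on all 3. The part of endothelial RNA in the KLS levels of the members was not tested.

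Hlf, a transcription factor of the PAR bZIP family, was highest in KLS cells and was measured well above background on every array. It read 4.09, 4.13 and 4.22 in KLS, 1.77, 1.83 and 1.31 in PreGM, 0.05, -0.04 and -0.22 in PreMegE, and -0.41, -0.47 and -0.48 in GMP. It read -1.80, -1.39 and -1.54 in Mac1Gr1, -2.51, -3.001 and -2.55 in Ter119, and -3.84, -3.11 and -2.31 in CFUe. No KLS array overlapped with an array of another fraction, and the myeloid fractions lay above the erythroid fraction of the same stage throughout. The change from KLS to PreMegE was -4.22 ± 0.27 (log2, SE, n = 3 arrays each), an 18.6-fold fall (limma, adjusted p = 3.35e-09), and from KLS to PreGM -2.51, a 5.69-fold fall (adjusted p = 4.20e-06). The next steps took Hlf down by -3.02 in CFUe, by -2.09 in GMP and by -1.12 in Mac1Gr1, and all 3 passed the test. With the normexp background correction the fall to Mac1Gr1 was -0.81, under 2-fold. The difference between PreMegE and GMP did not pass the test, which uses 1 spread for all fractions (0.38, adjusted p = 0.265), although their arrays did not overlap. That between Ter119 and CFUe, whose arrays overlapped, did not pass either (0.40, adjusted p = 0.180).

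Mecom, a zinc finger factor with a PR domain (EVI1 and its longer form MDS1-EVI1), gave different pictures with its 3 probes. The brightest probe read -2.66, -2.78 and -2.60 in KLS, -3.79, -3.39 and -4.97 in PreMegE, -3.83, -3.57 and -4.45 in PreGM, and -3.20, -3.49 and -2.87 in Mac1Gr1. It read -4.38, -4.24 and -4.12 in GMP, -5.44, -4.70 and -4.49 in CFUe with 2 arrays well above background, and -4.03, -4.32 and -4.42 in Ter119 with none. KLS arrays were above all others, but the span over fractions was small. The difference between KLS and Mac1Gr1 did not pass the test (0.51, adjusted p = 0.177), nor did that of any neighbors from PreGM down to CFUe. Mac1Gr1 lay 0.76 above PreGM (adjusted p = 0.0480), under 2-fold. The falls to PreMegE (-1.37 ± 0.33, adjusted p = 0.00509) and to PreGM (-1.27, adjusted p = 0.0102) passed the test, as did a rise from GMP to Mac1Gr1 (1.06, 2.09-fold, adjusted p = 0.00831). With the normexp background correction both falls were under 2-fold (-0.56 and -0.52), and with only the fractions compared in the fit the first had an adjusted p of 0.0525. The step from PreMegE to CFUe was -0.83 (adjusted p = 0.0481), under 2-fold, and was called without replicate 3 of PreMegE (-1.29) or of CFUe (-1.02). The first fall was under 2-fold without replicate 3 of PreMegE (-0.91, adjusted p = 0.0275), and the rise was under 2-fold without replicate 1 of GMP (0.99) or replicate 3 of Mac1Gr1 (0.90) and changed sign when arrays were scaled to the spike-in probes (-0.97, adjusted p = 0.00938).

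The second Mecom probe was far more restricted. Its means were -1.26 in KLS, -4.32 in PreGM and -4.65 in PreMegE, with 3, 2 and 3 arrays well above background, and it was not well above background in CFUe, Ter119, GMP or Mac1Gr1 cells. It fell by 3.38 to PreMegE (limma, adjusted p = 6.66e-07) and by 3.06 to PreGM (adjusted p = 5.65e-06), and it showed no rise in Mac1Gr1 (-0.12, adjusted p = 0.746, with no array above background on either side). The third probe, placed on another RefSeq record of the gene, was well above background in KLS cells alone (mean -3.12), at least 5.30-fold above PreMegE and at least 4.44-fold above PreGM. Such a bound sets the brighter mean against a floor averaged over the dim arrays, which on each is the dimmest signal of any probe well above background there, or the probe's own signal where that is higher. All 3 probes were highest in KLS cells, and only the brightest was near its KLS level in Mac1Gr1 cells.

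**Figure D1:**
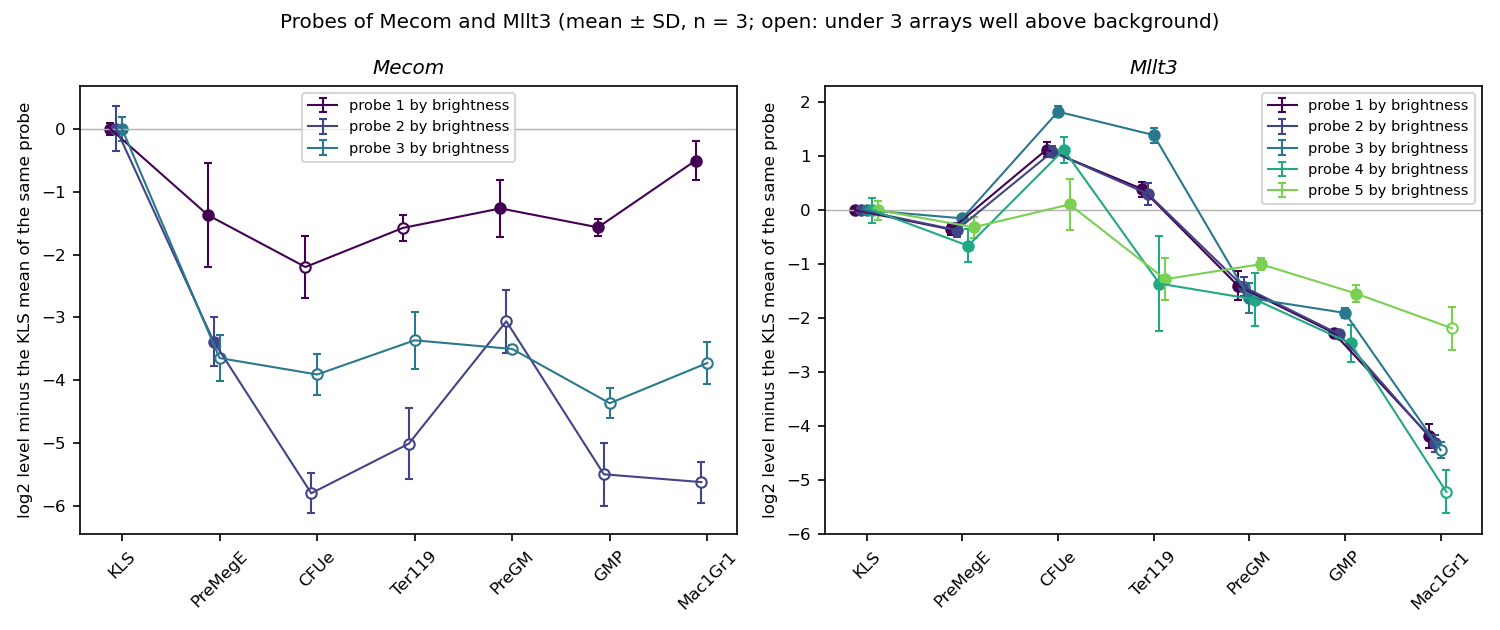
Each Mecom and Mllt3 probe as the mean log2 level of a fraction minus the KLS mean of the same probe (vertical axis) over the 7 fractions (horizontal axis). Points are means of 3 arrays with SD bars, open where fewer than 3 arrays were well above background, and the Mecom probes part in Mac1Gr1 cells whereas the Mllt3 probes share their peak in CFUe cells and part in Ter119 cells.

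Mllt3 behaved unlike the other members, since its highest fraction was CFUe. It read 2.86, 3.15 and 3.005 in CFUe, 2.15, 2.42 and 2.24 in Ter119, 1.90, 1.81 and 1.93 in KLS, and 1.61, 1.55 and 1.40 in PreMegE. It read 0.65, 0.62 and 0.16 in PreGM, -0.36, -0.42 and -0.40 in GMP, and -2.51, -2.35 and -2.07 in Mac1Gr1. The erythroid arrays all lay above the myeloid arrays, and the KLS arrays lay between CFUe and PreGM. Mllt3 rose by 1.48 ± 0.14 from PreMegE to CFUe (2.79-fold, limma, adjusted p = 1.83e-07). On the myeloid side it fell by 1.40 to PreGM (adjusted p = 2.27e-06) and by 1.91 from GMP to Mac1Gr1 (adjusted p = 1.40e-09). The step to PreMegE was -0.36 (adjusted p = 0.0726), and the steps from PreGM to GMP (-0.88, adjusted p = 0.00018) and from CFUe to Ter119 (-0.73, adjusted p = 0.00015) were under 2-fold. Without replicate 3 of PreGM the step to GMP was called (-1.03). With scaling to the spike-in probes the rise to CFUe was 0.96 (adjusted p = 0.0123), under 2-fold. The step from KLS to PreMegE was -0.82 (adjusted p = 0.055) with that scaling, so that CFUe then lay little above KLS.

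All 5 Mllt3 probes were highest in CFUe cells, with fraction means there of 3.004, 2.82, 1.49, 0.14 and -1.78 in order of brightness, although the fifth differed little between CFUe and KLS (0.11, adjusted p = 0.716). They parted in Ter119 cells. The change from CFUe to Ter119 was -0.78 and -0.43 on the second and the third probe, and -2.48 (limma, adjusted p = 7.08e-06) and -1.39 (adjusted p = 5.04e-05) on the fourth and the fifth. The rise from PreMegE to CFUe was called on the first 4 probes and was 0.42 on the fifth (adjusted p = 0.153).

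Procr fell furthest of the members at the first erythroid step. It read 2.82, 2.70 and 2.84 in KLS, -0.46, -0.11 and -0.41 in PreGM, -2.36, -2.29 and -2.28 in GMP, and -4.08, -4.19 and -4.55 in PreMegE. It read -4.86, -4.50 and -4.86 in Mac1Gr1, -5.26, -5.20 and -4.22 in Ter119, and -6.57, -7.26 and -5.67 in CFUe, where 1, 1 and 0 arrays were well above background. The KLS, PreGM, GMP and PreMegE arrays formed 4 groups with no overlap. From KLS to PreMegE the change was -7.06 ± 0.31, a 133-fold fall (limma, adjusted p = 6.82e-11), and from KLS to PreGM it was -3.12, an 8.67-fold fall (adjusted p = 2.23e-06). It fell by a further 1.98 to GMP (adjusted p = 0.000153), or 0.96 with scaling to the spike-in probes, which is under 2-fold, and by 2.43 to Mac1Gr1 (adjusted p = 1.80e-06). CFUe cells were at least 1.51-fold below PreMegE. With the normexp background correction this difference was -0.22 (adjusted p = 0.163) and the fall to Mac1Gr1 was -0.55, under 2-fold. The called difference between Ter119 and CFUe (1.61) joins fractions with 0 and 1 arrays above background and carries no fold, and it was 0.23 with scaling to the spike-in probes (adjusted p = 0.572). In the order of levels, the difference between PreMegE and Mac1Gr1 did not pass the test (0.47, adjusted p = 0.183), nor did that between Mac1Gr1 and Ter119 (0.15, adjusted p = 0.681).

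Tek was the member that was higher in PreMegE than in KLS cells. It read -0.89, -0.60 and -0.23 in PreMegE, -2.62, -1.96 and -2.57 in KLS, and -3.15, -3.19 and -3.13 in PreGM. No array of the other 4 fractions was well above background. The 3 measured fractions did not overlap. The rise from KLS to PreMegE was 1.81 ± 0.26, or 3.50-fold (limma, adjusted p = 4.78e-05), and PreGM differed from KLS by -0.78 (adjusted p = 0.0383), which was under 2-fold. Tek was at least 19.6-fold lower in CFUe than in PreMegE, and at least 4.74-fold lower in GMP than in PreGM. Called differences of Tek between Mac1Gr1 and GMP and between CFUe and GMP lie between fractions with no array above background and have no fold, and the former was -0.94 without replicate 1 of Mac1Gr1. Megakaryocyte markers moved with the rise, with 7 of 9 tested genes higher and 1 lower in PreMegE, a summed level of 10 genes of 46.9 to 56.6 there against 17.4 to 20.3 in KLS and 3.33 to 5.33 in CFUe, and their part in the result was not tested.

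Robo4 was high in KLS and PreGM cells and low elsewhere. It read 3.22, 3.30 and 3.27 in KLS, 1.46, 1.52 and 0.71 in PreGM, and -1.97, -1.66 and -1.88 in PreMegE. It read -3.48, -3.35 and -3.65 in Ter119, -4.38, -4.10 and -3.74 in Mac1Gr1, -5.05, -4.57 and -4.87 in CFUe, and -4.75, -5.17 and -4.79 in GMP. Of the CFUe arrays 1 was well above background, so that the sizes of differences with CFUe are uncertain. The first 3 fractions did not overlap with each other or with the rest. Robo4 fell by 5.10 ± 0.21 to PreMegE (34.4-fold, limma, adjusted p = 2.81e-11) and by 2.03 to PreGM (4.10-fold, adjusted p = 2.75e-06). The step from PreGM to GMP lowered it by far more (-6.13, 70.2-fold, adjusted p = 1.93e-11), whereas PreMegE to CFUe gave -2.99 (7.94-fold, adjusted p = 5.23e-09). CFUe and GMP did not differ (0.07, adjusted p = 0.786). Ter119 lay 1.34 above CFUe (adjusted p = 1.70e-05), which was 0.51 with quantile scaling (adjusted p = 0.119) and -0.04 with scaling to the spike-in probes (adjusted p = 0.917).

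Cd34, whose protein is the classical surface mucin of progenitors, was kept on the myeloid lineage up to GMP. It read 6.93, 6.81 and 6.87 in KLS, 7.06, 7.10 and 6.98 in PreGM, 5.75, 5.88 and 5.89 in GMP, and 3.80, 3.74 and 3.68 in PreMegE. It read -0.54, 0.23 and 0.34 in Mac1Gr1, -0.49, -0.81 and 0.06 in Ter119, and -3.23, -3.86 and 0.59 in CFUe. All arrays were well above background, and replicate 3 of CFUe lay far above the other CFUe arrays and above every array of Mac1Gr1 and Ter119. KLS and PreGM differed by 0.18 (95% confidence interval -1.36 to 1.71, limma, adjusted p = 0.895). Cd34 fell by 3.13 ± 0.72 to PreMegE (8.74-fold, adjusted p = 0.00338), and the changes from PreMegE to CFUe (-5.91, 60.1-fold, adjusted p = 2.97e-06) and from GMP to Mac1Gr1 (-5.83, 56.9-fold, adjusted p = 1.10e-06) were larger still. The former was -7.29 without replicate 3 of CFUe and -5.06 without replicate 2. With slide as a fixed block the fall to PreMegE was -1.40 (adjusted p = 0.447), and no slide held arrays of both KLS and PreMegE. The step from PreGM to GMP was -1.20 (adjusted p = 0.248) in the fit of all arrays, and the same value passed the test without replicate 3 of CFUe, which sets much of the spread of this probe (adjusted p = 0.000813).

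The apparent rise of Cd34 from CFUe to Ter119 (1.76, limma, adjusted p = 0.0350) rested on groups that overlapped. It was 3.14 without replicate 3 of CFUe, and it lost the call without replicate 1 (1.22) or 2 (0.91) of CFUe or replicate 1 (1.79, adjusted p = 0.0639) or 3 (1.52) of Ter119. Replicate 3 of CFUe was the CFUe array with Ddx3y, and its granulocytic marker sum was 41.4 against 5.98 and 5.41 on the others. Among the arrays with Ddx3y, all 3 of Ter119 and 1 of CFUe, the difference was -1.003, and with the presence of Ddx3y as a block, chosen after seeing the data, it was 0.41 (adjusted p = 0.600). The part of either measure in the value was not tested.

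Esam, an immunoglobulin superfamily molecule of cell junctions, was highest in KLS cells, with wide scatter in GMP. It read -0.71, -0.38 and -0.47 in KLS, -2.26, -2.23 and -2.01 in PreMegE, and -2.40, -2.20 and -3.45 in PreGM. It read -3.37, -3.93 and -4.17 in Ter119, -4.09, -4.21 and -3.19 in Mac1Gr1, -5.73, -4.46 and -1.60 in GMP, and -4.75, -4.26 and -3.64 in CFUe. In GMP and in CFUe, 2 arrays each were well above background. KLS arrays lay above all others without overlap. The GMP arrays spanned the range of every fraction but KLS. In the fit of all arrays no neighboring pair in the order differed. The comparisons read did not set KLS against CFUe, Ter119, GMP or Mac1Gr1. Of the 9 comparisons of steps and lineages, those that passed were KLS to PreGM (-2.17 ± 0.69, limma, adjusted p = 0.0289) and PreMegE to CFUe (-2.05, adjusted p = 0.0200). The first was lost without any single KLS array or without replicate 1 or 3 of PreGM (adjusted p = 0.0561 to 0.104), and the second without replicate 3 of PreMegE (adjusted p = 0.0538) or replicate 1 of CFUe (adjusted p = 0.0741). The fall from KLS to PreMegE was called without replicate 1 of GMP (adjusted p = 0.0353). Without replicate 3 of GMP the fall from KLS to PreMegE (-1.65, adjusted p = 0.00454), the fall from PreGM to GMP (-2.41, adjusted p = 0.000707) and a rise to Mac1Gr1 (1.27, adjusted p = 0.0150) passed the test. With all arrays these were -1.65 (adjusted p = 0.0915), -1.25 (adjusted p = 0.210) and 0.10 (adjusted p = 0.899).

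**Figure D2:**
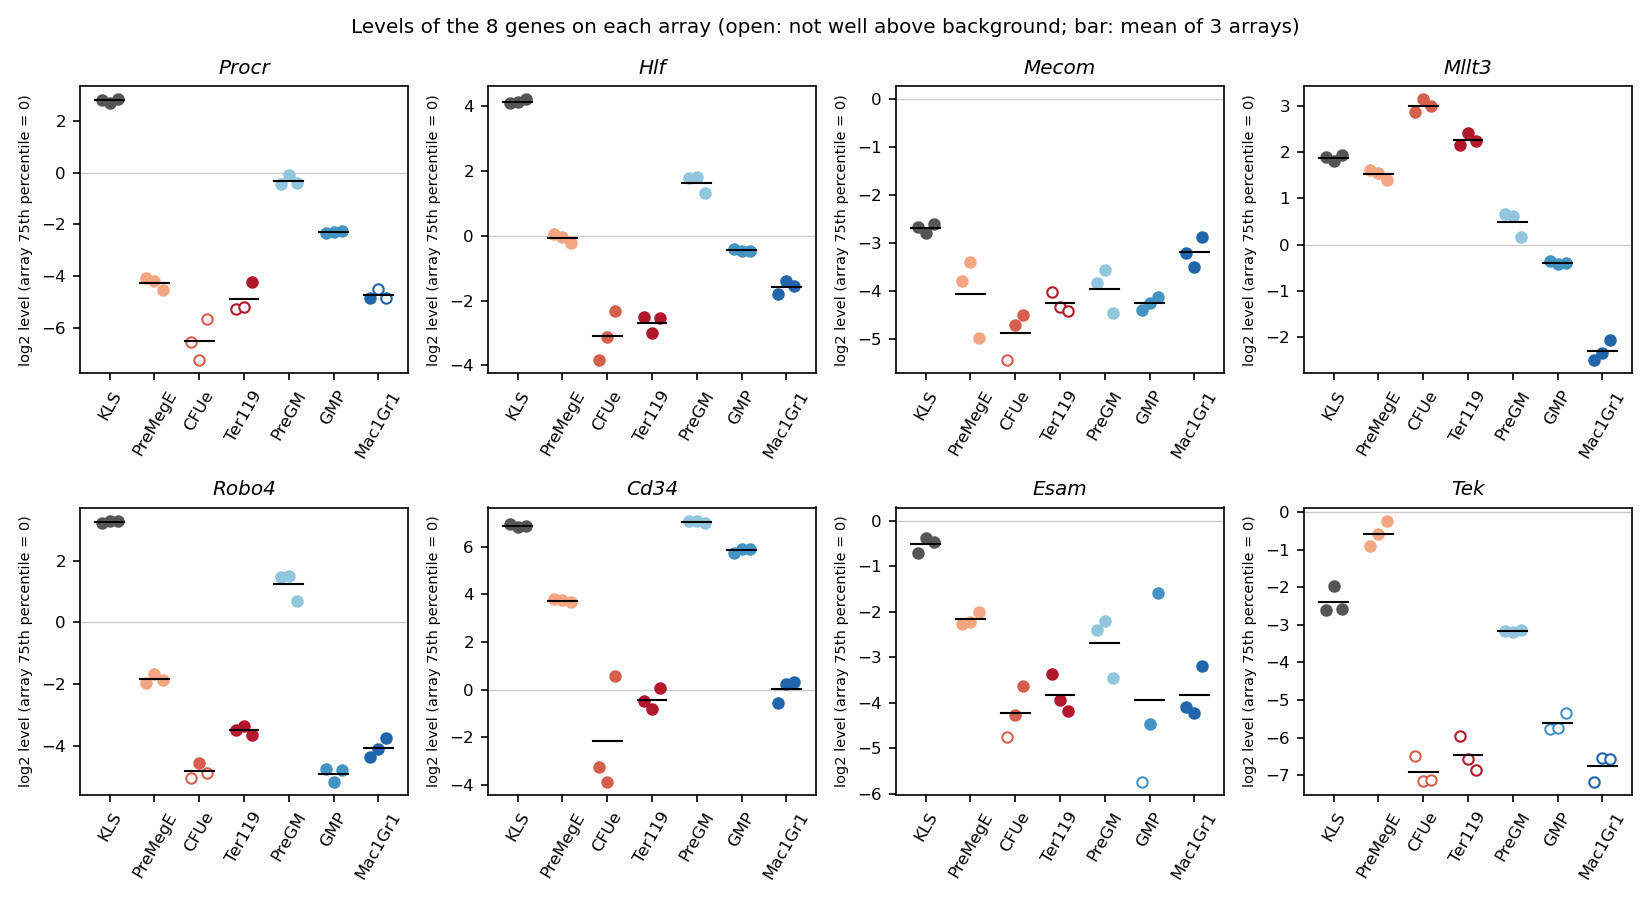
The log2 level of each of the 8 genes (vertical axes, array 75th percentile = 0) on each array of the 7 fractions (horizontal axes). Filled points are arrays well above background, open points are not, and bars are means of 3 arrays. Procr, Hlf, Mecom, Robo4 and Esam are highest in KLS cells, Cd34 is as high in PreGM, Mllt3 peaks in CFUe and Tek in PreMegE.

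Counted over the members, the first erythroid step lowered 5 genes (Procr, Hlf, Mecom, Robo4 and Cd34) and raised 1 (Tek), while 8.86% of the 29527 probes tested were called lower and 3.55% higher in PreMegE than in KLS. The median change of the members was -2.39, beside 0.13 for all probes. The first myeloid step lowered 6 genes (Procr, Hlf, Mecom, Mllt3, Robo4 and Esam) and raised none, beside 6.52% lower and 2.11% higher of all probes, with a median of -1.72 beside 0.06. Both comparisons share the KLS arrays. Macrophage markers fell at both steps, with 10 of 11 called lower in PreMegE (median -6.27) and 10 of 11 in PreGM (median -5.68), and the part of macrophage RNA in the KLS levels of the members was not tested.

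At the second erythroid step, from PreMegE to CFUe, 6 members fell (Procr, Hlf, Robo4, Cd34, Esam and Tek) and Mllt3 rose, beside 14.7% lower and 9.96% higher of all probes. The median was -2.61, or -2.52 with Procr and Tek at their bounds, beside 0.12. At the second myeloid step, from PreGM to GMP, 4 members fell (Procr, Hlf, Robo4 and Tek) and none rose, beside 6.36% lower and 4.01% higher, with a median of -1.61 beside -0.02. At the erythroid step 8 of 10 erythroid markers were called higher in CFUe and all 9 megakaryocyte markers tested were called lower (median -3.70), and their part in the member values was not tested.

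The third steps end in mature fractions, in which most of the transcriptome moved. From CFUe to Ter119, 3 members were called higher (Procr, Robo4 and Cd34) and none lower, beside 29.2% higher and 28% lower of all probes, and the median was 0.54 (0.40 with bounds) beside 0.05. None of these 3 rises passed the test with spike-in scaling. All 13 granulocytic markers, all 9 B cell markers tested and all 8 T cell markers were called higher at this step, as were 9 of 11 macrophage markers, and their part in the member values was not tested. The B cell sum was 1.32, 1.39 and 3.76 in CFUe and 151 to 210 in Ter119. From GMP to Mac1Gr1, 5 members fell (Procr, Hlf, Mllt3, Cd34 and Tek) and Mecom rose, beside 27.6% lower and 29.1% higher, with a median of -1.14 (-0.56 with bounds) beside 0.17. All 9 B cell markers tested, 9 of 11 macrophage markers and 10 of 13 granulocytic markers were called higher in Mac1Gr1, and their part in the member values was not tested either.

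**Figure D3:**
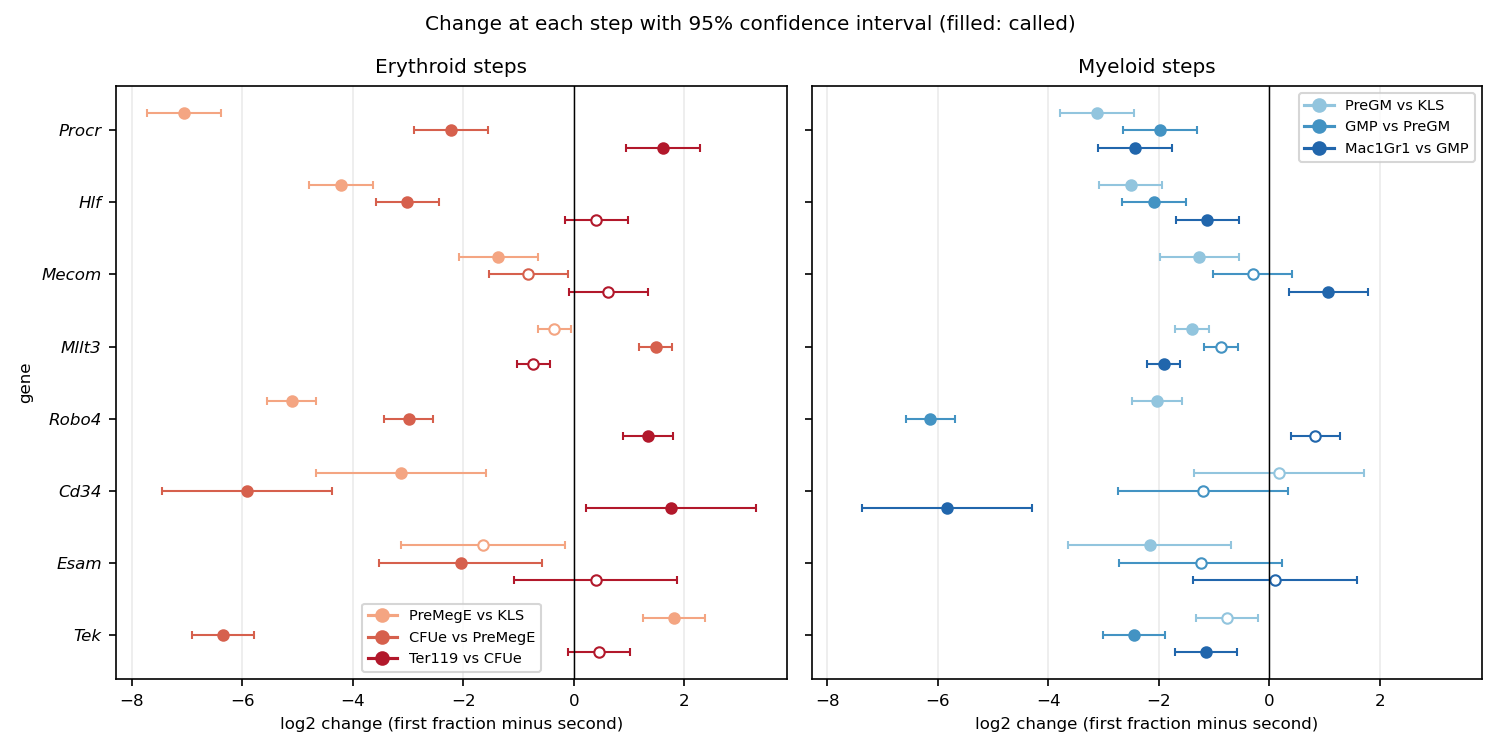
The log2 change of each gene at the 3 erythroid steps (left) and the 3 myeloid steps (right), as first fraction minus second (horizontal axes), with 95% confidence intervals from the fit of all 21 arrays. Filled points passed an adjusted p under 0.05 and 2-fold. Most filled points of the first and second steps lie below 0, with Tek at the first and Mllt3 at the second erythroid step above it.

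Fractions of the same stage were then compared between the lineages. PreMegE and PreGM both follow KLS, so that the difference between them is also the difference between the first steps. Mllt3 (1.04, 2.06-fold, limma, adjusted p = 2.45e-05) and Tek (2.58, 6.00-fold, adjusted p = 1.01e-06) were higher in PreMegE, beside 5.81% of all probes. Procr (-3.94, 15.4-fold), Hlf (-1.71, 3.27-fold), Robo4 (-3.07, 8.40-fold) and Cd34 (-3.30, 9.88-fold) were lower, beside 6.23%, each with an adjusted p of at most 0.00214. The median was -0.91 beside 0.03. Mecom (-0.11, 95% confidence interval -0.82 to 0.61) and Esam (0.52, -0.96 to 1.997) did not pass. Mllt3 fell just under 2-fold without replicate 1 of PreMegE (0.9995) or replicate 3 of PreGM (0.89). Both slides that held arrays of the pair gave the same direction for the 6 called genes, with -3.72 and -4.14 for Procr and 2.55 and 2.90 for Tek.

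At the second stage, CFUe against GMP, Mllt3 was 10.6-fold higher (3.40, limma, adjusted p = 2.94e-12), beside 12.1% of all probes. Lower in CFUe were Procr (at least 5.89-fold), Hlf (-2.64), Cd34 (-8.01, 258-fold) and Tek (not above background in either fraction), 4 members beside 14.2%, with a median of -0.97 (-0.46 with bounds) beside 0.22. Without replicate 3 of CFUe the Cd34 difference was -9.39, and without replicate 2 it was -7.16. At the third stage, Ter119 against Mac1Gr1, Mllt3 was 23.9-fold higher (4.58, adjusted p = 9.49e-14), beside 22% of all probes, and Hlf (-1.11) and Mecom (at least 2.05-fold) were lower, beside 19.9%. The median there was -0.07 (-0.08 with bounds) beside 0.06. Hlf lost this call without replicate 2 of Ter119 (-0.96), and Mecom without replicate 3 of Ter119 (-0.99) or of Mac1Gr1 (-0.91). Both calls were also lost with slide as a fixed block (Hlf -0.40, adjusted p = 0.357, and Mecom -0.45, adjusted p = 0.257) and as a random block (-0.98 and -0.93, under 2-fold), and Hlf was -0.35 with the normexp correction. The direction of Mecom turned with the second probe (0.61) and with normexp (0.0211). All Ter119 arrays had Ddx3y and no Mac1Gr1 array had it, so that this property and the fraction cannot be told apart here. Mllt3 was thus, on its brightest probe, the member higher in the erythroid fraction at every stage. The fourth probe was under 2-fold higher at the first stage (0.998), and the fifth at the first (0.69) and the third (0.91).

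The steps themselves were compared with an interaction term. At the second step, the erythroid change minus the myeloid change was 2.36 ± 0.20 for Mllt3 and 3.14 ± 0.29 for Robo4, and -4.70 ± 1.01 for Cd34 and -3.89 ± 0.37 for Tek (limma, adjusted p = 0.00168 at most). These 4 calls stand beside 20.2% of all probes. Tek had no array above background in CFUe and GMP, so that its 2 falls are known only as bounds. Neither the size nor the direction of their difference is measured. Robo4 had 1 CFUe array above background, so that the size of its difference is uncertain. The Cd34 difference was -6.08 without replicate 3 of CFUe and -3.86 without replicate 2. The Mllt3 difference was 0.82 with scaling to the spike-in probes (adjusted p = 0.0770). Hlf (-0.93, adjusted p = 0.0680) passed without replicate 3 of CFUe (-1.32, adjusted p = 0.00185). At the third step, the difference was 4.04 ± 0.44 for Procr, 1.52 ± 0.38 for Hlf, 1.18 ± 0.20 for Mllt3, 7.59 ± 1.01 for Cd34 and 1.61 ± 0.37 for Tek, which makes 5 calls beside 39.9% of all probes. The Cd34 difference was 8.96 without replicate 3 of CFUe and 6.74 without replicate 2, and the Mllt3 difference was 0.37 with the normexp background correction (adjusted p = 0.0706). On the fourth and the fifth Mllt3 probe the third-step difference was 0.27 (adjusted p = 0.677) and -0.74 (adjusted p = 0.0720). The Hlf difference was 0.85 with quantile scaling, under 2-fold, and 0.84 with the deposited values (adjusted p = 0.0516). The Tek difference was 0.93 with quantile scaling (adjusted p = 0.0691) and 0.15 with the normexp background correction (adjusted p = 0.607). The third-step values of Procr and Cd34 combine a fall from GMP to Mac1Gr1 with a starting level in CFUe that was already low. Procr had 0, 1 and 1 arrays above background in CFUe, Ter119 and Mac1Gr1, and Tek had none in the 4 fractions of this contrast. The sizes of both differences are therefore not measured, nor is the direction for Tek.

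**Figure D4:**
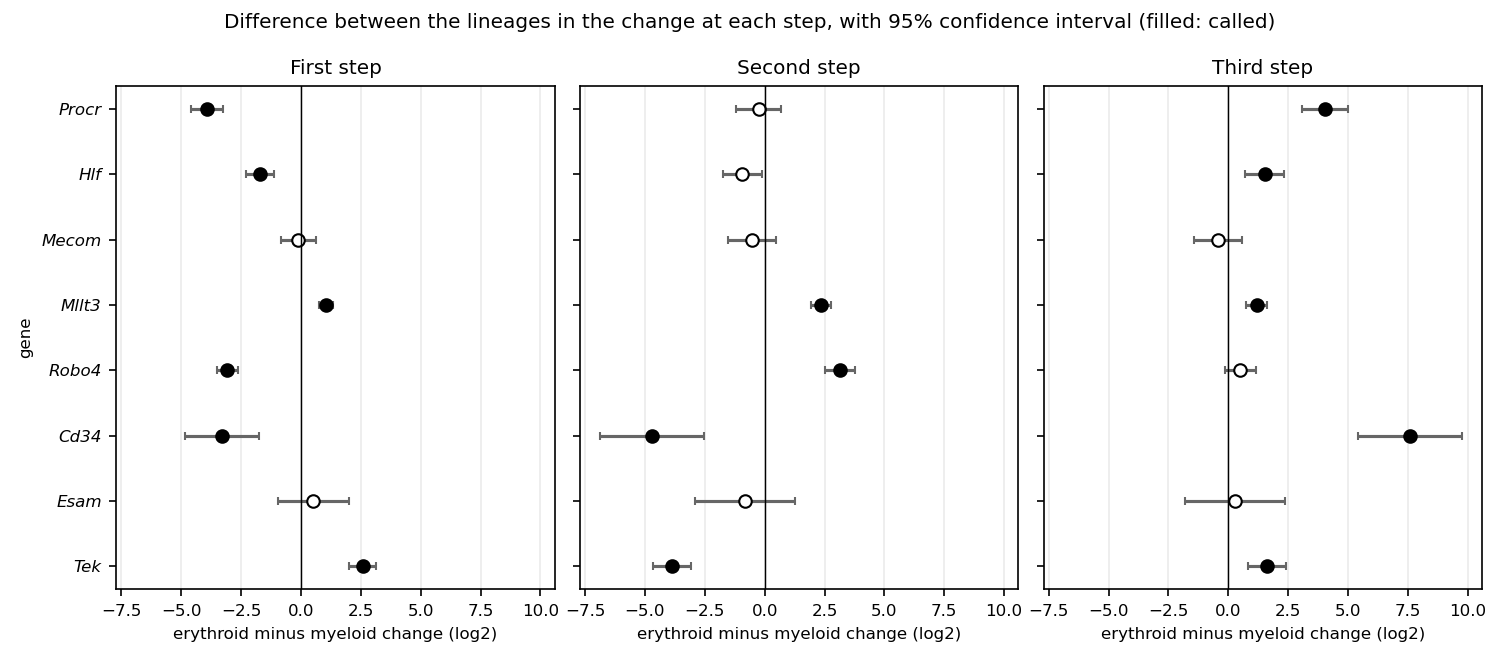
The erythroid minus the myeloid change (log2, horizontal axes) of each gene at the first, the second and the third step, with 95% confidence intervals; the first panel equals PreMegE minus PreGM. Filled points passed the test, with 6, 4 and 5 of them in turn, and Mllt3 lies above 0 in all 3 panels.

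The genes that work with the receptors were followed next, from lists of family and pathway partners. Of the TIE receptor partners, 3 of 5 were tested. Angpt1, the ligand that activates TEK, had means of 0.92 in KLS, 0.86 in PreMegE and 0.23 in PreGM and was called lower in CFUe (-3.35) and GMP (-2.74) than in the fraction before. Tie1, the orphan partner receptor, read 0.96 in KLS, -0.23 in PreMegE, -0.58 in PreGM and -1.13 in GMP, was called lower at both first steps and had no array above background in CFUe cells. Unlike Tek, neither Angpt1 nor Tie1 was called higher in PreMegE than in KLS.

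Of the protein C pathway, all 6 genes were tested. F2r, the thrombin receptor PAR1 through which the PROCR-bound protease signals, was called higher in PreMegE (5.24) than in KLS (2.33), the reverse of Procr, and its mean in PreGM was 2.23. F3, which encodes tissue factor, was called lower in PreMegE, and no gene of the list was called at the first myeloid step. Of 9 ROBO and SLIT genes, 4 were tested. Robo3, the neighbor of Robo4 on chromosome 9, read 3.01 in PreMegE, -0.34 in KLS and -0.55 in PreGM, and had no array above background in CFUe and GMP cells. Robo3 was called higher in PreMegE than in KLS and in PreGM, whereas Robo4 was called lower in both. Of the JAM and CTX family to which ESAM is related, 5 of 6 were tested, and F11r (JAM-A) and Jam3 were called lower at both first steps, as 2 of the 5 each time, while Cxadr was called higher in PreMegE. F11r read 1.69 in KLS, -0.43 in PreMegE and -0.68 in PreGM.

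Among the factors, Dbp and Tef, the PAR bZIP relatives of Hlf, changed by less than 2-fold or did not pass at both first steps, with Dbp at 2.40 in KLS, 2.37 in PreMegE and 2.14 in PreGM. Both were called lower in CFUe than in PreMegE, as was Nfil3, which binds the same sites as a repressor. Nfil3 was called lower in PreMegE (-2.17) and higher in PreGM (1.68) than in KLS (0.15). Of the PRDM family, 5 of 11 were tested, and Prdm16, the close relative of Mecom, was the gene called lower at both first steps, with 0.59 in KLS, -1.01 in PreMegE and -1.31 in PreGM. Of 13 genes of the DOT1L and super elongation complexes, 12 were tested. Ell2, an elongation factor, was called higher at the first 2 erythroid steps, with means of -2.05, -0.83 and 0.82 in KLS, PreMegE and CFUe. Dot1l, the H3K79 methyltransferase, read 1.14, 1.44 and 2.22 in the same fractions with no call up to CFUe and was called higher in CFUe than in GMP (1.02), where Mllt3 was too.

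Other genes in use as stem and progenitor markers were counted for comparison. Of 45 such genes 43 were matched and tested. In PreMegE 19 were called lower and 4 higher than in KLS (median change -1.04), beside 8.86% lower and 3.55% higher of all probes. In PreGM 19 were lower and 1 higher (median -0.79), beside 6.52% and 2.11%. In CFUe 28 were lower than in PreMegE and none higher (median -1.97, -1.91 with bounds), beside 14.7% and 9.96%. In GMP 20 were lower than in PreGM and 4 higher (-0.87, -0.80 with bounds), beside 6.36% and 4.01%. Gata2, Slamf1 and Vwf were among the genes higher in PreMegE, which is the direction of Tek, and Slamf1 encodes an antigen of the PreMegE gate. Fgd5, a stem cell marker, read -0.65 in KLS, -4.51 in PreGM and had no array above background in PreMegE. Mycn read 1.37 in KLS, 1.74 in PreMegE and -1.18 in PreGM, higher in PreMegE than in PreGM as Tek was. From CFUe to Ter119 20 were called higher and 6 lower (median 0.80, 0.65 with bounds), beside 29.2% and 28%, the step at which granulocytic and lymphoid markers rose too. In Mac1Gr1 12 were called higher and 19 lower than in GMP (median -0.14), beside 29.1% and 27.6%.

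The members did not share a single profile. Over the 21 arrays, Pearson's r was 0.96 between Procr and Hlf, 0.90 between Hlf and Robo4 and 0.86 between Procr and Robo4, while Mllt3 had r between -0.34 and 0.19 with the other 7. These values describe 7 fractions in triplicate, in which the arrays of a fraction are not separate points. The genes most like each member by r over the 21 arrays were Wtip (0.98) and Emcn (0.98) for Hlf, Fchsd2 (0.96) and Prkag2 (0.95) for Procr, and Slc16a11 (0.98) and Fam181b (0.97) for Robo4. They were Fgfrl1 (0.96) and Car2 (0.96) for Mllt3, Tmem176b (0.97) and Tmem176a (0.97) for Cd34, and Jun (0.95) and Gprasp1 (0.95) for Tek. For the members with more scatter they were Igsf10 (0.93) and Trpc6 (0.92) for Esam, and Spic (0.87) and Rell2 (0.86) for the brightest Mecom probe. Spic is on the list of macrophage markers. With the mean of the 8 scaled members, Vldlr (0.98), Bdh2 (0.97), Fam131a (0.97), Npdc1 (0.97) and Jag2 (0.96) ranked first. Vldlr read 2.65 in KLS, 0.53 in PreGM, -1.78 in PreMegE and -3.40 in GMP.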

How the data were processed

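Total RNA of 21 sorted samples was hybridised to 1-colour Agilent whole mouse genome arrays, 3 per fraction, with spike-in RNAs. Per the file headers, the authors' scanner files hold background-corrected intensity values (linear scale) made with Agilent Feature Extraction 10.7.1.1 and a probe annotation on mm9. The authors also deposited a table of normalized log2 values, used as an alternative. How that table was normalized is not given in the sources used here. The methods name LIMMA.

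Intensities were expressed as log2 minus the array's 75th percentile over the 43379 non-control spots. Between 80 and 283 outlier spots per array were left out, 0 spots were saturated, and replicate spots were averaged to give 41174 probes, of which 56.4 to 77.4% were well above background on an array. RefSeq accessions matched to a GRCm38.p6 gene table named 26690 probes (64.8%). A probe was tested where some fraction had it well above background on its 3 arrays (29527 probes). The test was the moderated, two-sided one of limma 3.58.1 (R 4.3.3), with 1 mean per fraction over all 21 arrays. p values were adjusted by Benjamini-Hochberg over these probes within each comparison, and calls needed both 2-fold or more and an adjusted p below 0.05. Residual SDs had a median of 0.262 (log2) with 14 residual degrees of freedom, and the number of arrays limits the precision. The fit was tested on simulated data.

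The members and all lists were chosen with earlier results of these data known. Named genes were the members, genes of the lists and markers, the 2 genes with the highest r to each member and the 5 with the highest r to their mean. Promoters came from RefSeq (GRCm38.p6), read 250 bases upstream. Alternatives were quantile and spike-in scaling (7 of 10 spike-in probes), normexp, the deposited table, no filter, slide as fixed or random block and within slides, the replicate number as a block, no minimum fold, only the fractions compared, the second brightest probe and leaving out each array. Added after seeing the data were leaving out replicate 3 of CFUe with replicate 3 of GMP, and Ddx3y as a block. Values of some listed genes are not reported here. Marker sums are sums of linear levels relative to the 75th percentile.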

Additional observations from a re-analysis of the deposited data

Results flagged for a closer look

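The members below passed a test of the difference between their erythroid and their myeloid change in the fit of all arrays (limma, adjusted p under 0.05 and at least 2-fold). At the first step the erythroid minus the myeloid change was -3.94 for Procr, -1.71 for Hlf, 1.04 for Mllt3, -3.07 for Robo4, -3.30 for Cd34 and 2.58 for Tek. At the second step it was 2.36 for Mllt3, 3.14 for Robo4, -4.70 for Cd34 and -3.89 for Tek. At the third step it was 4.04 for Procr, 1.52 for Hlf, 1.18 for Mllt3, 7.59 for Cd34 and 1.61 for Tek, where Tek had no array well above background in any of the 4 fractions and Procr had 0, 1 and 1 in CFUe, Ter119 and Mac1Gr1. Tek also had none in CFUe and GMP, the ends of the second step. The sizes of these Tek and Procr differences are therefore not measured, nor is the direction of those of Tek. With normexp the third-step value of Tek was 0.15 (adjusted p = 0.607). Robo4 had 1 CFUe array above background, so that its size at the second step is uncertain. The brightest Mllt3 probe was called with the same sign at all 3 steps, but the call was lost at the second step with spike-in scaling (0.82, adjusted p = 0.0770) and at the third with normexp (0.37, adjusted p = 0.0706). The dimmer probes did not all share these calls. At the third step the fourth probe gave 0.27 (adjusted p = 0.677) and the fifth -0.74 (adjusted p = 0.0720). Under 2-fold were also both at the first step (0.998 and 0.69) and the fifth at the second (0.97). The call of Hlf at the third step was lost with quantile scaling (0.85) and with the deposited values (0.84, adjusted p = 0.0516). Replicate 3 of CFUe enters the second and the third step, and it was the CFUe array with Ddx3y and with the highest Cd34. The groups had 3 arrays each, so that single arrays were not tested as outliers.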

How the results depend on the processing

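The 88 member values (8 genes in 11 contrasts) were recomputed under each alternative, except that the second brightest probe gave 22 values and the fits within slides or within arrays with or without Ddx3y gave 8 to 32. Without the filter on dim probes and with the replicate number as a block (replicate block), all 88 kept their direction and call; for example Procr in PreMegE against KLS was called in both. Samples with the same replicate number did not deviate together more than others (correlations -0.43 to 0.37, median 0.003, against a median of 0.008 for other numbers). This gives no sign that the numbers pair the samples. Arrays of different fractions on 1 slide had correlations of -0.047 to 0.40 (median 0.118), and the consensus correlation within slides was 0.19. Leaving out 1 array moved no count of called members by over 1.5 times. Scaling to the spike-in probes moved the median of all probes by up to -2.03 (Mac1Gr1 against GMP) and gave 1 called member in Ter119 against CFUe (3 in the main setting), 8 in CFUe against GMP (5) and 7 at the second step (4). It split these as 0 higher and 1 lower, 1 and 7, and 1 and 6, and gave 0 higher and 7 lower in Mac1Gr1 against GMP and in CFUe against PreMegE. It reversed Robo4 in Ter119 vs CFUe (-0.0382), Mac1Gr1 vs GMP (-1.20) and CFUe vs GMP (-1.31), and Mecom (-0.97) and Esam (-1.93) in Mac1Gr1 vs GMP. With it 20 counts over all probes moved by over 1.5 times, at 0.142 to 11.9 times the main count, as did 15 with normexp (0.450 to 0.662) and 14 with no minimum fold (1.52 to 6.65). The normexp correction, which compresses dim probes, gave 3 called members in Mac1Gr1 against GMP (6), 1 in Ter119 against Mac1Gr1 (3) and 3 at the third step (5), and reversed Tek in Mac1Gr1 vs GMP (0.69) and CFUe vs GMP (0.27), Mecom in Ter119 vs Mac1Gr1 (0.0211) and Procr at the second step (1.44). With slide as a fixed or a random block, 1 member was called in Ter119 against Mac1Gr1 (3). The second Mecom probe reversed Mac1Gr1 vs GMP (-0.12) and Ter119 vs Mac1Gr1 (0.61). Among arrays with Ddx3y, Cd34 in Ter119 vs CFUe was -1.003, and Ddx3y as a block left the call of 82 of 88 values as it was. The cause of these changes was not tested. At the third step quantile scaling gave 3 higher and 1 lower, and the deposited values gave 4 and 1, against 5 and 0. Of 2926 member values with a test under an alternative, 66 that neither fit called changed sign. Signal over background limits Tek in CFUe, GMP and both mature fractions, and Procr in CFUe and both mature fractions. It limits the brightest Mecom probe in CFUe and Ter119, and the dimmer Mecom probes in more fractions. It also limits Robo4 in CFUe, and Esam in CFUe and GMP.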
